A study of Bos taurus with 15 samples.

Results

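The 9 citric acid cycle transcripts described here are CS, IDH2, IDH3A, OGDH, DLST, SUCLA2, SUCLG1, FH and MDH2, out of 15575 genes tested on the same arrays. They were chosen by name, as enzymes or enzyme subunits of the cycle, with earlier results of these data known. Probes of the 9 were found by the gene name, the gene identifier or the RefSeq accession in the array annotation. Each of the 9 genes had 1 probe, printed as 2 spots per array. RNA of bovine biceps brachii, a limb muscle collected at slaughter, was measured on 1-colour oligonucleotide arrays, 1 array per animal. The 8 prednisolone cattle (P25 to P32) received this synthetic glucocorticoid orally, 30 mg per animal daily over 35 days, and were set against 7 control cattle (C17, C18 and C20 to C24). Breed, age and genotype are not stated in the labels. The treatment text of the control samples names Finaplix, Revalor and Revalor with dexamethasone, a second glucocorticoid, while every one of these samples is itself labelled a control; nothing states whether these animals were given any of these agents. RNA of the prednisolone animals was extracted with TRIzol and cleaned on RNeasy MinElute columns, whereas control RNA came from the RNeasy Mini kit, so treatment and extraction method cannot be told apart. Nothing in the labels says more about how the animals were housed or paired, and each p-value sets a difference or correlation against the variation between these animals.

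The citric acid cycle runs in the mitochondrial matrix and oxidises the acetyl group that comes from pyruvate, fatty acids and some amino acids. Its dehydrogenases hand electrons to the respiratory chain, which makes most of the ATP of working muscle, and slow oxidative fibres carry more mitochondria than fast glycolytic ones. Glucocorticoids alter fuel use in muscle, and the comparison shows whether the transcripts of the cycle's enzymes differed between treated and control muscle.

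None of the 9 transcripts differed between prednisolone and control muscle beyond the spread between animals. In limma, adjusted by Benjamini-Hochberg across the 20894 probes tested, their adjusted p lay between 0.993 and 0.998, and 0 of the 9 reached an unadjusted p of 0.05 (1, DLST, did without C22). The background was the same at the adjusted threshold, with 0 of 15575 genes called (0.0%), while 504 genes (3.24%) had an unadjusted p under 0.05. An exact Wilcoxon test also called 0 genes after adjustment and had 435 under the unadjusted 0.05. The prednisolone mean was higher for 4 members and lower for 5, where 52.3% of all genes were higher and 47.7% lower; other scalings of the arrays gave 3 to 5 higher. Without C18, without C20, without C20 and P31, or with array weights, 2 were higher and 7 lower, and with a testis germ cell score as covariate 6 were higher and 3 lower. The median log2 difference, prednisolone minus control, was -0.011 over the 9 members and 0.011 over all genes. In no member were the groups free of overlap, as they were in 0.225% of all genes. Among the 10353 genes that were well above background on all 8 prednisolone arrays they were so in 0.

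All levels below are log2 intensities after each array was shifted to the same 75th percentile. A level is read only against the same probe in other animals, since probes differ in how brightly they report. All 9 members had a value on all 15 arrays. On the prednisolone arrays, for which scanner flags were used here, 8 of the 9 were well above background on all 8, OGDH on 6 of 8, and none was saturated. In muscle pieces such as these, fewer cells of a type and less RNA per cell cannot be told apart.

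Citrate synthase (CS, probe A_73_109183) joins acetyl-CoA to oxaloacetate, and the enzyme is a common marker of mitochondrial content in muscle. Only the CS transcript was measured here. Its level in the 8 prednisolone animals had a lowest value of 14.49, a median of 14.78 and a highest of 15.05, and in the 7 controls 14.60, 14.76 and 15.10. The ranges nearly coincide, with P28 lowest and C21 highest of all animals. The means were 14.79 ± 0.21 (SD, n = 8) in prednisolone animals and 14.80 ± 0.17 (SD, n = 7) in controls. The log2 difference was -0.011 with a 95% interval from -0.26 to 0.23, which spans changes from -16.3% to 17.7%.

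IDH2 (probe A_73_120105) is the mitochondrial isocitrate dehydrogenase that produces NADPH. Prednisolone animals ran from 15.16 through a median of 15.57 to 15.97, controls from 15.12 through 15.51 to 15.58. P27, P29 and P32 lay above every control, while P30 and P25 lay at the low end beside C18, so the treated animals enclosed nearly the whole control range. Means were 15.55 ± 0.28 (SD, n = 8) with prednisolone and 15.44 ± 0.17 (SD, n = 7) in controls, a log2 difference of 0.12 (95% interval -0.17 to 0.40).

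IDH3A (probe A_73_110000) encodes the catalytic alpha subunit of the NAD-dependent isocitrate dehydrogenase, a regulated step of the cycle. The lowest, median and highest levels were 6.96, 7.64 and 7.93 with prednisolone and 7.14, 7.84 and 8.02 in controls. Most of the range overlapped, although 6 of the 8 prednisolone animals lay below the control median. P26 and C17 were the lowest animals of their groups. The log2 difference was -0.13 (95% interval -0.48 to 0.23), from means of 7.59 ± 0.30 (SD, n = 8) in prednisolone animals and 7.71 ± 0.32 (SD, n = 7) in controls.

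The 2-oxoglutarate dehydrogenase complex, which makes succinyl-CoA, is represented by its first component OGDH (probe A_73_102431, listed on the array as LOC534599) and its second, the succinyltransferase DLST (probe A_73_108782, listed as LOC506888). The OGDH spots were close to their local background, with a median signal 1.54 times background on the prednisolone arrays. Its levels were 3.29, 3.88 and 4.43 (lowest, median, highest) with prednisolone and 3.62, 3.96 and 4.25 in controls. The prednisolone range enclosed the control range. The SD between the 2 OGDH spots of an array was 0.33, against 0.32 between animals of a group. The first is of single spots and the second of the mean of 2 spots, so they are not like measures. Scatter between spots is part of the spread between animals, and how large a part was not tested. The means were 3.90 ± 0.39 (SD, n = 8) with prednisolone and 3.99 ± 0.23 (SD, n = 7) in controls, with a log2 difference of -0.088 (95% interval -0.45 to 0.28), which was 0.088 after quantile normalization.

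DLST had the largest difference of the 9. Its prednisolone levels had a lowest value of 7.03, a median of 7.77 and a highest of 7.94, against 6.29, 7.39 and 8.25 in controls. Controls held both extremes, C17 lowest and C22 highest, and the prednisolone values lay inside the control range. The log2 difference was 0.35 (95% interval -0.18 to 0.89, unadjusted p = 0.179, limma), from means of 7.59 ± 0.37 (SD, n = 8) with prednisolone and 7.23 ± 0.62 (SD, n = 7) in controls. Leaving out C17 moved this value by more than 1.5 times, to 0.20, and without C22 it was 0.52 (unadjusted p = 0.032 by limma, which did not pass the adjusted threshold). With array weights, which count less consistent arrays less, it was 0.038.

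Succinyl-CoA synthetase releases CoA and makes ATP or GTP directly. SUCLA2 (probe A_73_120080, listed as LOC511090) is the beta subunit of the ATP-forming enzyme, and SUCLG1 (probe A_73_101561) the alpha subunit that both forms share. SUCLA2 levels were 13.05, 13.49 and 13.64 (lowest, median, highest) in prednisolone animals and 13.07, 13.49 and 13.88 in controls. The medians coincide to 2 decimals, and C24 stood highest. SUCLG1 levels were 15.65, 15.87 and 16.05 with prednisolone and 15.68, 16.005 and 16.16 in controls. Here 7 of 8 prednisolone animals lay below the control median, the most one-sided count among the 9, yet the ranges overlapped over most of their length. The log2 difference was 0.015 (95% interval -0.29 to 0.32) for SUCLA2, with means of 13.42 ± 0.23 (SD, n = 8) with prednisolone and 13.40 ± 0.29 (SD, n = 7) in controls. It was -0.078 (95% interval -0.30 to 0.15) for SUCLG1, with means of 15.85 ± 0.14 (SD, n = 8) with prednisolone and 15.93 ± 0.19 (SD, n = 7) in controls.

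Fumarase (FH, probe A_73_102956, listed as LOC520260) hydrates fumarate to malate, and malate dehydrogenase 2 (MDH2, probe A_73_118300) closes the cycle by regenerating oxaloacetate. FH levels were 13.44, 13.73 and 14.04 (lowest, median, highest) with prednisolone and 13.32, 13.72 and 14.11 in controls. The control range enclosed the prednisolone range. MDH2 levels were 12.74, 13.23 and 13.45 with prednisolone and 13.18, 13.27 and 13.45 in controls. P26 alone lay below the control range, and the 7 controls were tighter than for any other member. The log2 difference was 0.045 (95% interval -0.26 to 0.35) for FH, from 13.76 ± 0.21 (SD, n = 8) with prednisolone and 13.72 ± 0.32 (SD, n = 7) in controls. For MDH2 it was -0.071 (95% interval -0.30 to 0.15), from 13.22 ± 0.22 (SD, n = 8) with prednisolone and 13.29 ± 0.086 (SD, n = 7) in controls, and without P26 it was -0.0028.

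**Figure D1:**
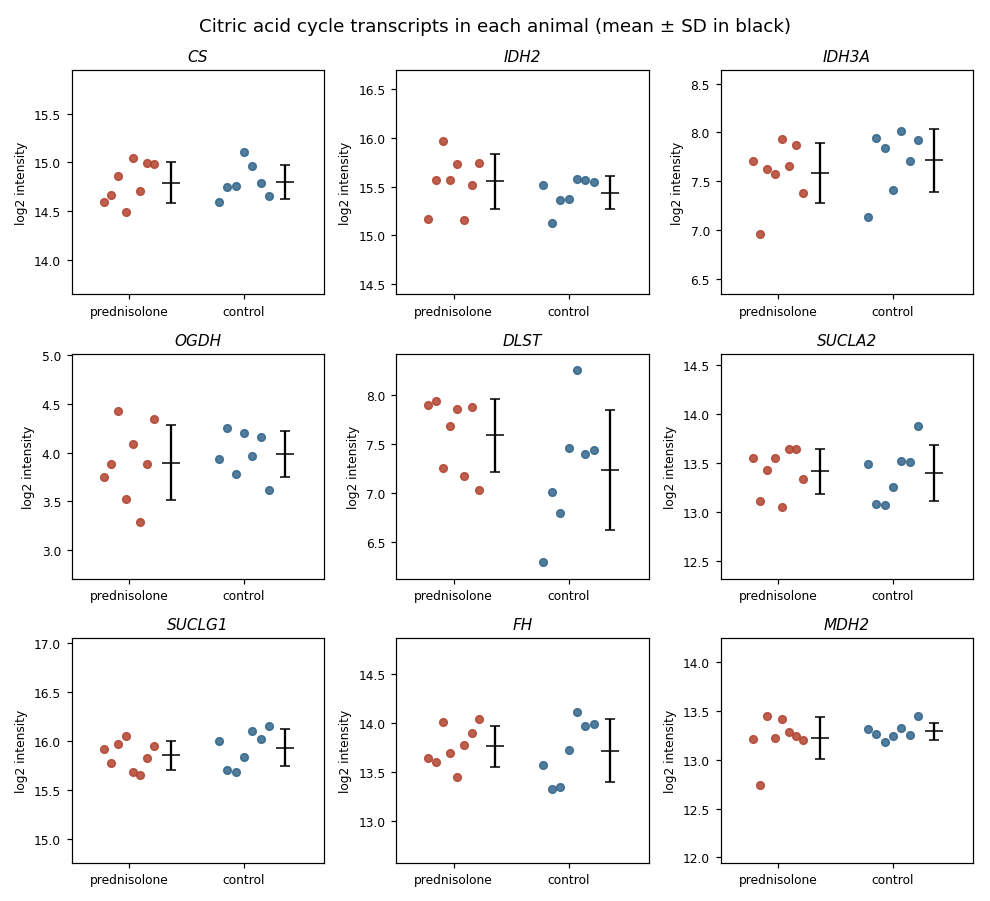
Log2 intensity of each of the 9 transcripts in 8 prednisolone animals (red, left) and 7 control animals (blue, right), 1 point per animal, with the group mean and SD in black. Every panel spans the same number of log2 units, and the groups overlap in all 9. DLST shows the widest scatter, with C17 at 6.29 and C22 at 8.25.

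The intervals bound the net difference between the groups after scaling, in which treatment and extraction method cannot be told apart. For 8 of the 9 members the 95% interval stayed inside a 1.5-fold rise or fall, DLST being the exception, and those of 4, CS, SUCLA2, SUCLG1 and MDH2, lay within 1.25-fold. The 8 include OGDH, whose signal was near background, so its interval says little about its transcript. Among the 10353 genes that were well above background on all 8 prednisolone arrays, 62.2% had an interval within 1.5-fold and 11.9% within 1.25-fold. OGDH is not one of these bright genes. Over all 15575 genes the shares were 46.5% and 9.1%. The intervals of all 9 members lay within a 2-fold change, against 89.2% of the bright genes and 72.8% of all genes. For the other 9 genes of the cycle, taken up below, the counts were the same. There 4, 8 and 9 of 9 lay within 1.25-fold, 1.5-fold and 2-fold. The median SD between animals of a group was 0.26 for the members, 0.20 for the other 9 cycle genes and 0.34 for the same bright genes. SUCLG1, MDH2 and CS varied least, with SDs of 0.17, 0.17 and 0.19, and DLST varied most, with 0.50. For DLST and SUCLA2 the spread between the spots of an array was well below that between animals, with SDs of 0.11 and 0.025 between spots. For SUCLG1 and MDH2 it was nearer, at 0.12 each between spots against 0.17 each between animals.

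**Figure D2:**
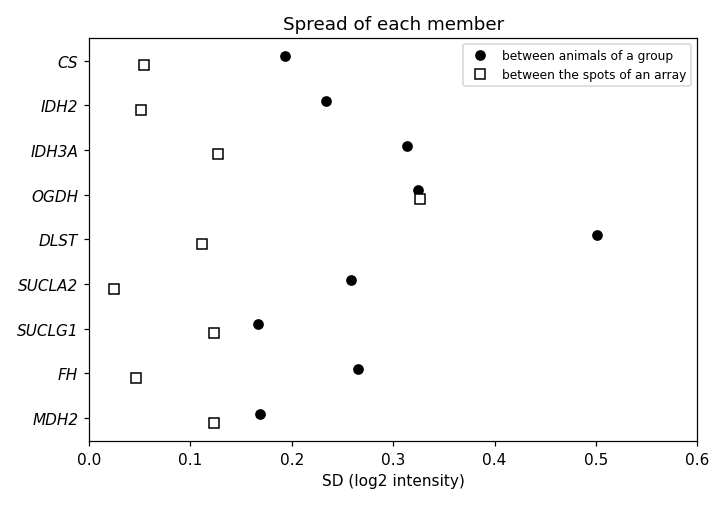
SD of log2 intensity for each transcript, between animals of a group (filled circles) and between the 2 spots of an array (open squares). Circles are for the mean of the 2 spots and squares for single spots. Only for OGDH are both about equal, at 0.32 between animals and 0.33 between spots, and DLST has the widest spread between animals, at 0.50.

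The other 9 genes of the cycle on the array gave the same picture, and 8 of them are described here. The regulatory subunits of the NAD-dependent isocitrate dehydrogenase, IDH3B and IDH3G, had log2 differences of 0.13 (95% interval -0.53 to 0.78) and 0.055 (95% interval -0.32 to 0.44). DLD, the third component of the 2-oxoglutarate and pyruvate dehydrogenase complexes, had -0.052 (95% interval -0.36 to 0.25), and SUCLG2, the beta subunit of the GTP-forming synthetase, -0.079 (95% interval -0.33 to 0.17). Succinate dehydrogenase, which is also complex II of the respiratory chain, had differences of 0.027 for SDHA, -0.032 for SDHB, 0.034 for SDHC and -0.021 for SDHD. Over these 9 genes 5 were higher and 4 lower with prednisolone, the median was 0.027, and 0 reached an unadjusted p of 0.05. The split was 8 higher and 1 lower without C24. It was 3 higher and 6 lower with array weights, by group medians, without C18 or without P27. Like SUCLG1, SUCLG2 and SDHD were below the control median in 7 of 8 prednisolone animals. The IDH3B probe used here, A_73_115095, had an SD of 0.62 between animals of a group. A second IDH3B probe of nearly the same mean level, A_73_105836, had a difference of 0.055 and a narrower 95% interval, from -0.23 to 0.34.

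**Figure D3:**
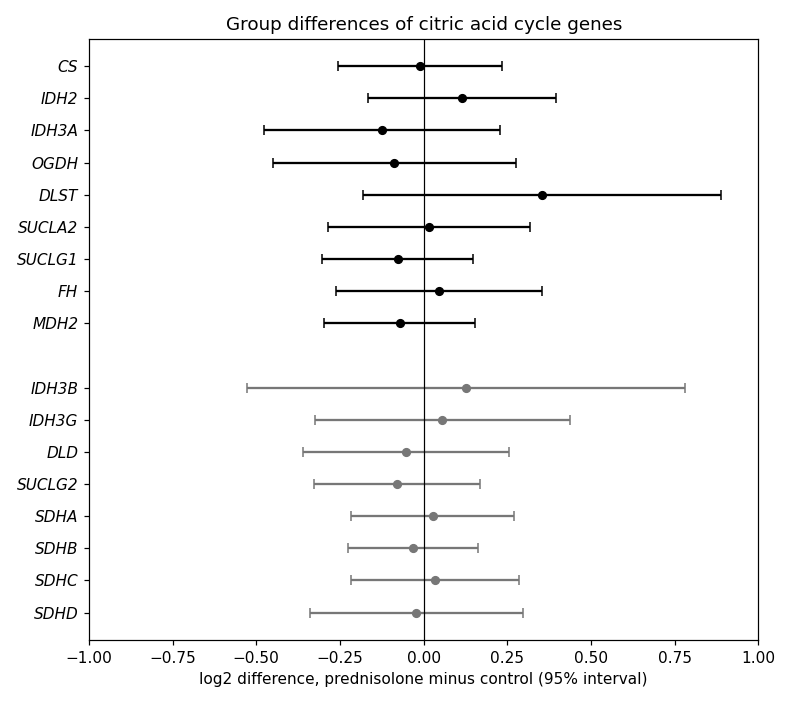
Log2 difference, prednisolone minus control, with its 95% interval from limma (n = 8 and n = 7), for the 9 transcripts (black) and 8 of the other cycle genes (grey). All intervals shown include 0, and those of DLST and of the IDH3B probe shown are the widest.

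Pyruvate enters the cycle through the mitochondrial pyruvate carrier and the pyruvate dehydrogenase complex, which kinases switch off and phosphatases switch on. Of these 12 genes, 5 were higher and 7 lower with prednisolone (7 and 5 with equal medians or quantile normalization), with a median of -0.019, and 1 reached an unadjusted p of 0.05. That gene was PDK4, a kinase that turns the complex off and that glucocorticoids are known to induce in muscle. PDK4 levels were 12.16, 13.35 and 14.71 (lowest, median, highest) with prednisolone and 13.25, 14.51 and 15.20 in controls, so 7 of 8 prednisolone animals lay below the control median and the groups overlapped. Its log2 difference was -0.95 (95% interval -1.79 to -0.10, unadjusted p = 0.031, adjusted p = 0.993, limma), and it did not pass the adjusted threshold. Its unadjusted p was also above 0.05 without C17, C18, C20, P25, P26 or P29, and with the testis score as covariate (log2 difference -0.53). The other kinases had differences of 0.045 for PDK1, 0.0013 for PDK2 and 0.035 for PDK3, and the phosphatases -0.24 for PDP1 and 0.16 for PDP2. In the complex itself PDHA1 had -0.16, DLAT -0.019 and the E3-binding protein PDHX -0.018. PDHB had -0.038 from 4 prednisolone and 4 control values only, and was well above background on 1 of 8 prednisolone arrays. The carrier subunits had -0.044 for MPC1 and 0.10 for MPC2.

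Around the cycle, 19 genes of cytosolic partner enzymes, carriers and anaplerosis were measured, of which 10 were higher and 9 lower and 0 reached an unadjusted p of 0.05. Their differences ran from -0.94 to 0.55. Several alternatives had 1 or 2 genes under 0.05, with 2 for equal medians, without C22, without P25 and with the testis score as covariate. The split ran from 8 higher and 11 lower without C17 to 13 higher and 6 lower without P25. The smallest p belonged to PCCA, a subunit of propionyl-CoA carboxylase that feeds succinyl-CoA (log2 difference 0.28, 95% interval -0.0025 to 0.56), and to the citrate carrier SLC25A1 (0.55, 95% interval -0.0085 to 1.11). Of 11 measured genes of mitochondrial biogenesis and mass, 8 were higher and 3 lower, with a median of 0.041. Without C18 it was 5 higher and 6 lower with a median of -0.0031, and without C20, P28 or P29, or with the testis score as covariate, 6 higher and 5 lower. NRF1, a transcription factor for nuclear genes of mitochondria, had 0.80 (95% interval 0.066 to 1.53, unadjusted p = 0.035, adjusted p = 0.993, limma) and was well above background on 2 of 8 prednisolone arrays. Its unadjusted p was above 0.05 without C22, C24, P25, P29, P30 or P31, by the exact Wilcoxon test, after quantile normalization and with the testis score as covariate. HSPA9, a chaperone of the matrix, had 0.17 (95% interval -0.048 to 0.39).

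The cycle transcripts were set beside the pathways that feed it, by counts and medians only. Glycolysis had 10 of 10 measured genes lower with prednisolone (8 after quantile normalization and 9 with equal medians, 7 without any one of C18, P26 and P27, 6 with the testis score as covariate) and a median of -0.10. It had the smallest p for ALDOA at -0.17 (95% interval -0.37 to 0.034) and GAPDH at -0.16 (95% interval -0.37 to 0.05). Fatty acid oxidation had 12 of 14 higher (8 after cyclic loess, 9 without a shift of the arrays, 7 without P27, 6 without C18) and a median of 0.056, with ACADL at 0.22 (95% interval -0.14 to 0.58) and HADHB at 0.24 (95% interval -0.21 to 0.70). The cycle's 9 members had 4 higher and 5 lower, a count that changed with the animals used as given above. In each of these lists 0 genes reached an unadjusted p of 0.05 in the main fit, and a difference between the lists was not tested. In other settings 1 glycolysis gene did, with 16 added before log2 or with trend and robust eBayes. So did 1 fatty acid oxidation gene without C24 and 1 member without C22.

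High and low animals occurred in both groups. With each member taken relative to its own mean over the 15 animals, the average over the 9 members ran from -0.15 in P26 to 0.15 in P27 among prednisolone animals and from -0.20 in C20 to 0.25 in C22 among controls. C22 was above the mean in all 9 members and highest of all animals in 3, and C24 was highest in 3 as well. C20 was below the mean in 8 of 9 and among the lowest 3 animals in 5. P26 was lowest in IDH3A and MDH2 while being second highest in DLST, so a single animal did not stand at 1 end for all members. On the prednisolone arrays, which lay on 5 slides, the mean absolute difference over the members had a median of 0.32 for the 3 pairs of animals on a shared slide and 0.31 for the 25 pairs on different slides. Slides of the control arrays were not known here.

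**Figure D4:**
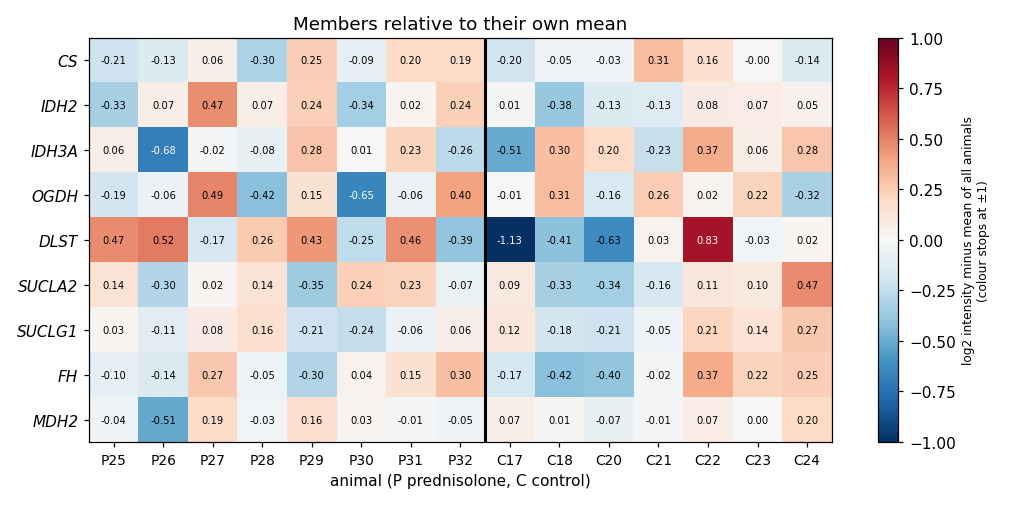
Level of each transcript (rows) in each animal (columns, prednisolone left of the line, controls right) minus its mean over all 15 animals, in log2 units, with red above and blue below the mean. C22 is above the mean in every row, C20 is below it in 8, and the strongest single departures are DLST in C17 (-1.13) and C22 (0.83).

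Pairs of members were correlated across the 15 animals after group means were removed. Of 36 pairs, 27 had a positive Pearson r, the median r was 0.24, and 0 passed an adjusted permutation p of 0.05 by Pearson or Spearman (100000 permutations within groups, 2-sided). The highest r joined SUCLG1 and FH (r = 0.73, permutation p = 0.0071, adjusted p = 0.158; Spearman rho = 0.74, permutation p = 0.0058, adjusted p = 0.207). It was 0.46 within prednisolone animals, 0.89 within controls, and 0.52 without C18 and C20. The synthetase subunits SUCLA2 and SUCLG1 followed with r = 0.68 (permutation p = 0.011, adjusted p = 0.158; rho = 0.56), which was 0.28 within prednisolone animals, 0.96 within controls and 0.55 without C20 and P29. OGDH with SUCLA2 was lowest with r = -0.47 (permutation p = 0.069, adjusted p = 0.309; rho = -0.56). Whether r differed between the groups was not tested. FH tracked the mean of the other 8 members most closely (r = 0.65) and OGDH, the transcript whose spots scattered most, least (r = 0.079).

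IDH2 varied with the fibre markers of the animals. Each of the 9 was correlated with the mean level of 8 slow fibre markers, of 6 fast fibre markers and of testis germ cell markers, 27 relations in all, and 2 passed an adjusted p of 0.05, both for IDH2. How the slow and fast fibre scores relate to each other was not tested, so these 2 relations cannot be counted as independent. With the slow fibre score, IDH2 had r = 0.86 (permutation p = 0.00022, adjusted p = 0.0059) and rho = 0.84 (permutation p = 0.00063, adjusted p = 0.017). With the fast fibre score it had r = -0.80 (permutation p = 0.00094, adjusted p = 0.013) and rho = -0.75 (permutation p = 0.0036, adjusted p = 0.048). P27 was highest in both IDH2 and the slow fibre score, and P25, P30 and C18 were low in both. C20 and C21 did not follow, with slow fibre scores of 0.17 and 0.14, among the 5 highest, and IDH2 levels of 15.37 each, among the 5 lowest.

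Both relations had the same sign in each group. With the slow fibre score r was 0.95 within prednisolone animals (exact permutation p = 2.5e-05, n = 8, the smallest the exact test can give) and 0.52 within controls (exact permutation p = 0.223, n = 7). With the fast fibre score it was -0.83 (exact permutation p = 0.0097, n = 8) within prednisolone animals and -0.76 (exact permutation p = 0.055, n = 7) within controls. Without P25 and P30, the animals farthest out on the slow fibre score, r was 0.70 (permutation p = 0.013, adjusted p = 0.176). Without C21 and P25, farthest out on the fast fibre score, r was -0.77 (permutation p = 0.0044, adjusted p = 0.118), so neither relation passed the adjusted threshold without its 2 outermost animals. After quantile normalization the slow fibre relation passed (r = 0.91, adjusted permutation p = 0.0011) and the fast fibre relation did not (r = -0.62, adjusted permutation p = 0.180). By single markers the r of IDH2 ran from 0.25 for myoglobin (MB) to 0.81 for the slow myosin light chain MYL3, and from -0.29 for TNNC2 to -0.83 for the fast troponin TNNT3. The score of the slow fibre markers itself had a prednisolone mean of -0.058 and a control mean of 0.066, in log2 deviation, and all 8 measured slow markers were lower with prednisolone (6 after quantile normalization), 0 of them at an unadjusted p of 0.05.

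**Figure D5:**
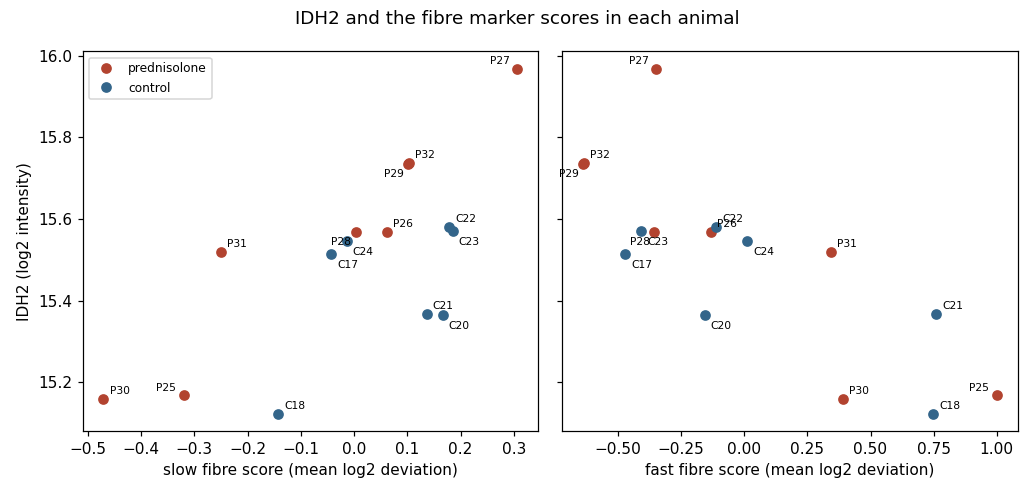
Log2 intensity of IDH2 against the slow fibre score (left) and the fast fibre score (right), each the mean log2 deviation of its markers, in 8 prednisolone animals (red) and 7 controls (blue), 1 labelled point per animal. Across all animals r is 0.86 with the slow and -0.80 with the fast fibre score, both with group means removed, and C20 and C21 lie low in IDH2 for their slow fibre scores.

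The other 25 relations did not pass. OGDH had r = 0.62 with the slow fibre score (permutation p = 0.034, adjusted p = 0.305) and rho = 0.57. Its r was 0.80 within prednisolone animals, -0.038 within controls and 0.37 without P25 and P30, and its signal was near background. The CS transcript had r = 0.36 with the slow fibre score (permutation p = 0.235, adjusted p = 0.719) and rho = 0.45. Among the other 9 cycle genes, examined after these results were seen, none passed either. IDH3B had r = -0.69 with the fast fibre score (permutation p = 0.0073, adjusted p = 0.197) and rho = -0.61. This value is from probe A_73_115095 alone, and the second IDH3B probe was not set against the scores. SDHA had r = 0.60 with the slow fibre score (permutation p = 0.030, adjusted p = 0.272) and rho = 0.59.

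The 10 genes whose values over the 15 arrays were most like the mean of the 9 members, of 11359 ranked by Pearson r with group means removed, included subunits of the respiratory chain, and 9 of the 10 are named here. NDUFV1 (r = 0.84) belongs to complex I and UQCRFS1 (r = 0.80) to complex III. PGAM5 (r = 0.81) is a mitochondrial phosphatase. TEK (r = 0.83) and TIE1 (r = 0.81) are receptors of the vessel wall, F11R (r = 0.84) and JCAD (r = 0.80) are proteins of cell junctions, SHANK3 (r = 0.81) is a scaffold protein best known at synapses, and NOS2 (r = 0.80) is an inducible nitric oxide synthase. These are the extremes of a ranking and carry no test, and 3 of the 10 stayed among the 10 most alike after quantile normalization and 4 without C20 and P31. SDHA ranked 100 and SUCLG2 163, the highest of the other cycle genes, with r of 0.66 and 0.61.

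Muscle identity and other tissues were checked by marker lists. Striated muscle markers were bright in all animals, with the summed linear intensity of 7 genes between 581489 and 822352 with prednisolone and between 635358 and 796412 in controls, and ACTA1, skeletal actin, had a log2 difference of -0.056 (95% interval -0.31 to 0.19). The troponins TNNC1 (slow) and TNNC2 (fast) each had -0.12, and these genes turned positive after quantile normalization, at 0.036 for ACTA1, 0.092 for TNNC1 and 0.013 for TNNC2. Several arrays also held transcripts foreign to muscle. Of 14 testis germ cell markers 13 were lower with prednisolone, 3 of them, PRM1, TNP1 and TNP2, at an unadjusted p of 0.05 (0 without C20, 11 without P31, 9 with array weights), with summed intensities from 636 to 257525 with prednisolone and from 3191 to 375873 in controls, and PRM1, a sperm protamine, differed by -5.03 (95% interval -9.37 to -0.69, adjusted p = 0.993, limma). PRM2 was not well above background on any prednisolone array. The 9 measured thymocyte markers summed to between 219 and 10610 with prednisolone and between 258 and 29692 in controls, with CD8B at -0.23. RAG1 was not well above background on any prednisolone array, and control arrays had no such flags here. The 8 hepatocyte markers summed to between 1162 and 5648 with prednisolone and between 924 and 3816 in controls. Of these 8, 7 were higher with prednisolone, with a median log2 difference of 0.69 (0.022 by group medians, with 4 higher and 4 lower), and APOA1, at -0.26, was the only lower one. The 7 adipocyte markers summed to between 5447 and 12680 with prednisolone and between 5293 and 10382 in controls. Of these 7, 6 were higher with prednisolone, with a median of 0.34, and LPL was the only lower one at -0.076. LEP was not well above background on any prednisolone array. CIDEA, named after its value was seen, was the 1 adipocyte marker under an unadjusted p of 0.05, at 1.03 (95% interval 0.17 to 1.90), and none was under it without C18 or C20. The part of these markers in the results was not tested. None of the 9 members was correlated with the testis score past the threshold (r from -0.34 for OGDH to 0.38 for IDH3A). Without C20 and P31, the animals with the most testis transcripts, 0 of the 9 were called, and IDH2 kept r = 0.91 with the slow and -0.83 with the fast fibre score.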

How the data were processed

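Total RNA of biceps brachii from 8 prednisolone-treated and 7 control cattle was measured on 1-colour Agilent arrays. The authors deposited a value table with 1 linear intensity per spot and array. Per the design text, the signal is background-subtracted and detrended by Feature Extraction, and the submitters' processing notes name R 2.11.1. How arrays were scaled to each other is not stated. Detection and saturation flags, spot and background intensities of the prednisolone arrays came from the deposited scanner output (Feature Extraction 9.5.1.1, per the file headers). On those arrays the table correlated with the log2 processed signal across spots with r of at least 0.999789. Control arrays entered through the value table alone.

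Intensities were taken as log2 and each array was shifted to the same 75th percentile over 14324 probes measured on all 15 arrays. The 75th percentiles before this shift lay between 10.56 and 10.76, and between 72.1% and 87.4% of the 42990 spots had a value on an array. The number of arrays limits the precision. Spots of a probe were averaged, and 20894 probes with at least 3 values in each group were tested with limma 3.58.1 under R 4.3.3 (lmFit, then eBayes with no trend). The adjustment was Benjamini-Hochberg, the threshold 0.05. Of 21475 probes 17626 had a gene name. A gene was its highest probe by mean level. For all 9 members the RefSeq name and the description in the array annotation were the same. Correlations used values with group means removed and 100000 permutations within groups (exact within a single group), adjusted within each family (Python 3.11.15, scipy 1.17.1). A marker score is the mean of the centred values of markers present on all arrays. The fit was tested on simulated data.

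Named are the 9 members, the other cycle and pyruvate entry genes, 2 genes with the smallest p of each further list, the marker with the highest mean level of each marker list and the 10 genes most like the mean of the members; 2 genes that this rule names are not reported here. The members and lists were chosen with earlier results of these data known. Alternatives covered scaling, an offset of 16, weights, variance model, probe filters, probe choice, the exact Wilcoxon test, leaving out animals and a testis score as covariate. No sequences or genome positions were used here.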

Additional observations from a re-analysis of the deposited data

Results flagged for a closer look

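In MDH2 the prednisolone animal P26 stood apart from its group, at 12.74 log2 intensity, with the next animal at 13.20. In ALDOA the control animal C18 stood apart at 18.69, with the next control at 18.41, and in GAPDH the same animal stood apart at 18.53, with the next at 18.29. In APOA1, a hepatocyte marker, the prednisolone animal P31 stood apart at 12.18, with the next animal at 10.20. These are 4 of 104 groups examined (3.85%), and chance alone flags about 1 group in 20.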

How the results depend on the processing

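No paired analysis was possible because prednisolone and control animals share no animal number. Of 1299 recomputed values of named genes, 1191 kept their direction and 108 changed it, all of differences that did not pass the threshold; the cause was not tested. None of the 9 members or the other 9 cycle genes was called under any alternative. Over all genes 1 was called without C23 (ZNF696), 1 without P31 (LOC506828) and 1 without both C20 and P31 (LOC506828), so 0 to 1 when animals were left out singly. The 504 genes at an unadjusted p under 0.05 became 1024 with array weights, 319 among probes well above background, 860 without C20 and P31, and 380 to 1149 when animals were left out singly (1149 without P31).

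Direction changed with array weights for SUCLA2 (-0.065), FH (-0.098), IDH3G (-0.0046), SDHA (-0.031), PDK2 (-0.023), PDK3 (-0.047) and CD8B (0.32). It changed with cyclic loess for SUCLA2 (-0.0058) and PDK2 (-0.020), without a shift of the arrays for PDK2 (-0.0077), and with equal medians for CS (0.011), SDHD (5.82e-05), DLAT (0.0022) and PDHX (0.00388). With quantile normalization it changed for OGDH (0.088), SUCLA2 (-0.0053), PDHB (0.31), DLAT (0.049), TNNC1 (0.092), TNNC2 (0.013) and ACTA1 (0.036). Differences of medians beside the Wilcoxon test changed sign for CS (0.019), SUCLA2 (-0.0046), IDH3G (-0.071), SDHA (-0.035), PDHB (0.26) and PDK1 (-0.072). With the testis score as covariate the changed values were CS 0.059, IDH3A 0.0021, IDH3B -0.21, DLD 0.084, SDHC -0.041, SDHD 0.015, DLAT 0.097, PDHX 0.047, PDK1 -0.12, PDK2 -0.00613, PDP2 -0.043 and APOA1 0.75. Without C20 and P31 they were SUCLA2 -0.072, FH -0.035, CD8B 0.22 and LPL 0.021.

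With single animals left out, differences that crossed 0 ran from -0.047 to 0.039 for CS, -0.040 to 0.095 for SUCLA2, -0.021 to 0.11 for FH, -0.028 to 0.13 for IDH3G, -0.12 to 0.0084 for DLD, -0.030 to 0.066 for SDHA, -0.064 to 4.0e-05 for SDHB, -0.016 to 0.083 for SDHC and -0.087 to 0.062 for SDHD. Likewise they ran from -0.46 to 0.52 for PDHB, -0.12 to 0.051 for DLAT, -0.082 to 0.039 for PDHX, -0.057 to 0.14 for PDK1, -0.058 to 0.095 for PDK2, -0.027 to 0.12 for PDK3, -0.16 to 0.060 for MPC1, -0.045 to 0.21 for MPC2, -0.71 to 0.51 for CD8B and -0.19 to 0.021 for LPL.

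Of the 27 relations with marker scores, 2 passed the threshold, against 1 within prednisolone animals, 0 within controls, 0 without the 2 outermost animals and 1 after quantile normalization. For IDH2 and the slow fibre score r was 0.52 within controls and 0.70 without the 2 outermost animals, neither past the threshold. For IDH2 and the fast fibre score the values not past it were -0.83 within prednisolone animals, -0.76 within controls, -0.77 without the 2 outermost animals and -0.62 after quantile normalization. Of 36 pairs of members 0 passed, and 1 passed within controls (SUCLA2 and SUCLG1). Signal near background limits OGDH, PDHB and NRF1.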
